A study of Mus musculus with 12 samples.

Results

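The 6 genes described here encode the chemokines Cxcl1, Cxcl2, Cxcl3, Cxcl5 and Ppbp and their receptor Cxcr2. They were taken as every probe on the arrays whose accession mapped to 1 of these genes. That gave 6 of 20284 named genes on one array design and 6 of 23462 on the other, with 1 probe per gene on each. The study profiled microglia, the resident macrophages of the brain, isolated from male mice aged 8 weeks by magnetic sorting with a CX3CR1 enrichment kit. CX3CR1, the fractalkine receptor, is also carried by monocytes and other macrophages. The mice were labelled ZEB1-overexpression (zeb1-tg), ZEB1-knock down or wild type. ZEB1 is a zinc-finger transcription factor that binds E-box sequences. Each genotype was sampled after tMCAO, a stroke model in which a brain artery is blocked and reopened, or before it (treatment labelled control). Each of the 6 groups held 2 arrays. The promoter that drives the overexpression, the cells in which ZEB1 was changed, the time after tMCAO and any pooling of animals are not given in the sources used here. The labels do not say that replicates came from separate animals, so p-values measure the spread between arrays, which may be technical only.

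The 5 ligands belong to the CXC chemokines with an ELR motif ahead of the first cysteines. They are secreted by tissue macrophages, endothelium and other cells after injury or infection, or released by platelets in the case of Ppbp. Their shared receptor, CXCR2, is a G protein-coupled receptor that guides neutrophils out of blood vessels and toward the source. In stroke models, neutrophils enter the injured hemisphere along such gradients. Transcription of several of the ligands is known to be induced by NF-kappaB downstream of interleukin 1 and TNF.

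The 5 ligand genes lie together on chromosome 5, in the order Cxcl5, Ppbp, Pf4, Cxcl3, Cxcl15, Cxcl1 and Cxcl2, and Cxcr2 lies on chromosome 1. RefSeq promoter sequences (build GRCm38.p6, 250 bases before to 50 bases after the start site) matched 5 of the 6 members, all but Cxcl5. The promoters of Cxcl1 (chr5:90890995-90891294), Cxcl2 (chr5:90903649-90903948) and Cxcl3 (chr5:90785851-90786150), all on the plus strand, are shown because these 3 hold the same match to the kappaB consensus, in capitals.
Cxcl1: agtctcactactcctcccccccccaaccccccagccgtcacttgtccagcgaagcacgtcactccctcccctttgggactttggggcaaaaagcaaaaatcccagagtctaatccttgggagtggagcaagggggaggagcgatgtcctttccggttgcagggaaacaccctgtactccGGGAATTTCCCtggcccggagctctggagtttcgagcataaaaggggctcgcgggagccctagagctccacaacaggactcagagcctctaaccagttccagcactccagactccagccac
Cxcl2: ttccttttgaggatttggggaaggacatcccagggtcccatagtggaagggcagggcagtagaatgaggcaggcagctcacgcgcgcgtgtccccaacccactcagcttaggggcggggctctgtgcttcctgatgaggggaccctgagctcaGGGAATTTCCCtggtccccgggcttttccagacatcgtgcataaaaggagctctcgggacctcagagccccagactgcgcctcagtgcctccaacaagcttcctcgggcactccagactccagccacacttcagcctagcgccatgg
Cxcl3: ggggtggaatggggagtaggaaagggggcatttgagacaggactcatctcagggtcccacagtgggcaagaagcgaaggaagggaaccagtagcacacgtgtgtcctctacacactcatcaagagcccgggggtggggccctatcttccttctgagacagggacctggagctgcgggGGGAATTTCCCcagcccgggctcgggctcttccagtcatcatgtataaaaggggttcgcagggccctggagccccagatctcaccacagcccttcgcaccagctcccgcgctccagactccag
The capitals mark GGGAATTTCCC, which starts 71 bases upstream of the start site in Cxcl1, 97 in Cxcl2 and 73 in Cxcl3. The 10-base kappaB consensus matches there on both strands, overlapping in all but 1 base. Across 32851 promoters of the same length, 8.46% held a kappaB match on either strand. The exact run GGGAATTTCCC, chosen after these sequences were read, was found in 14 promoters (0.0426%). The promoters of Ppbp and Cxcr2 held no kappaB match. The ZEB1-type E-box CAGGTG, searched on both strands, was found only in the Cxcr2 promoter among the 5, 127 bases upstream, and in 20.2% of all promoters. The AP-1 motif TGANTCA (either strand) was found in the Ppbp promoter alone of the 5, 204 bases upstream, and in 7.81% of all promoters. TATAAA on the plus strand lay 30 bases upstream in Cxcl3 and 30 and 8 bases upstream in Ppbp, and in 8.32% of all promoters. A match describes the letters of this window and not a bound site.

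Levels are given as log2 of the processed spot intensity minus the 75th percentile of the array, so 0 is a bright gene, and a level is compared between groups of the same slide only. ZEB1-overexpression and wild type after tMCAO shared a 4-array slide, and the other 4 groups shared an 8-array slide. Each design was 1 slide with 1 scan time. The 75th percentile, in intensity units, was 1078 to 1515 for the 4-array slide and 2566 to 3702 for the 8-array slide, and 60.4% to 73.9% of spots were well above background. Replicates correlated at 0.975 to 0.988 across probes, which are not independent. Zeb1 followed the labels only in part. Its level was -0.08 and 0.56 in the arrays labelled ZEB1-overexpression after tMCAO, against 0.12 and 0.41 in wild type. Its brighter probe on the 8-array slide gave -0.11 and -0.79 for the ZEB1-knock down label before tMCAO and -0.285 and -0.362 for the ZEB1-overexpression label, against -0.57 and -0.59 for wild type. On that probe the overexpression pair lay above its wild type, and the knock-down arrays overlapped with theirs. A second probe gave -0.24 and -0.68 for the knock-down label before tMCAO and -0.42 and -0.31 for the overexpression label, against -0.40 and -0.64 for wild type, so both labels overlapped with wild type. In the knock-down arrays after tMCAO the 2 probes read -0.66 and -0.67, and -0.98 and -0.81. Genotype names below are therefore those of the labels. All 13 microglial markers, among them P2ry12 and Tmem119, were well above background on every array. Markers of neutrophils, platelets, endothelium, astrocytes and fibroblasts were present too, and in such bulk samples fewer cells of a type and less RNA per cell cannot be told apart.

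After tMCAO in arrays labelled ZEB1-knock down, 3 members rose relative to the same label before tMCAO. These were Cxcl1, 25.9-fold, Cxcr2, 6.81-fold, and Cxcl5, 5.53-fold. The folds of Cxcl1 and Cxcr2 depend on background, since both genes were dim before tMCAO. With normexp background correction the log2 differences were 3.76 for Cxcl1, 1.97 for Cxcr2 and 2.10 for Cxcl5. Without it they were 4.69, 2.77 and 2.47. Cxcl2 and Ppbp did not pass the test, and Cxcl3 was not well above background in either group. The count was 3 of 5 members tested, all higher, where limma (adjusted p under 0.05) called 16.0% of 24646 genes in either direction, 10.1% as higher and 5.90% as lower. At unadjusted p under 0.05 the same 3 members passed, as did 35.4% of all genes. The median difference was 2.47 log2 units over the members tested and 0.04 over all genes. The kind of comparison, after against before within a genotype on one slide, was available for this label only.

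Cxcl1, an early chemokine of macrophages, endothelium and astrocytes, had levels of 0.28 and -1.72 in the knock-down arrays after tMCAO, against -5.32 and -5.50 in the knock-down arrays before it. Both arrays after tMCAO stood far above both before it, although the 2 arrays after tMCAO lay far apart from each other. The difference was 4.69 ± 0.81 (SE, n = 2 each, 95% confidence interval 2.73 to 6.65, limma adjusted p = 0.0181). The call was lost without replicate 1 after tMCAO (3.69, adjusted p = 0.0535), without replicate 1 before it (4.78, 0.0831) and without replicate 2 before it (4.60, 0.0998).

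Cxcl5, in the mouse an ELR chemokine known from epithelium and platelets, had levels of -0.79 and -2.37 in knock-down arrays after tMCAO, against -3.79 and -4.31 before it. It was the only member well above background on all 8 arrays of the slide, and the 2 groups did not overlap. The difference was 2.47 ± 0.51 (SE, n = 2 each, 95% confidence interval 1.23 to 3.71, limma adjusted p = 0.0291). The call was lost without either array before tMCAO (2.73, adjusted p = 0.0909, without replicate 1 and 2.20, 0.140, without replicate 2), with no filter on dim probes (0.0561) and with only these 2 groups fitted (0.0646).

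The receptor gene Cxcr2 had levels of -2.91 and -3.30 in knock-down arrays after tMCAO, against -5.67 and -6.08 before it. Its 2 arrays after tMCAO lay close together and well clear of the others. The difference was 2.77 ± 0.32 (SE, n = 2 each, 95% confidence interval 1.996 to 3.541, limma adjusted p = 0.00686). Of the 3 calls it had the smallest SE, and it was lost without replicate 2 before tMCAO (2.57, adjusted p = 0.0540).

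The other ligands were less clear. Cxcl2, a macrophage and neutrophil chemokine, had levels of -2.26 and -5.43 in knock-down arrays after tMCAO, against -5.43 and -5.89 before it. One array was high and the other lay at the level of the arrays before tMCAO. The difference of 1.82 ± 1.19 did not pass (95% confidence interval -1.07 to 4.70, limma adjusted p = 0.319), and it ran from 0.24 to 3.40 with each array left out in turn. Ppbp, the precursor of the platelet chemokine NAP-2 (CXCL7), had levels of -5.76 and -4.16 after tMCAO, against -7.43 and -5.32 before it. The first array of each of these groups was not well above background. The difference was 1.42 ± 1.04 (95% confidence interval -1.11 to 3.94, limma adjusted p = 0.372) and ran from 0.36 to 2.47 with each array left out. With the replicate number as a block Ppbp passed (adjusted p = 0.0197). Cxcl3 read -5.93 and -7.82 in knock-down arrays after tMCAO, against -9.41 and -7.81 before it, and was not well above background on any of the 8 arrays of the slide, so no fold is given.

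Position and time cannot be told apart in this comparison. The knock-down arrays after tMCAO lay in row 1, columns 2 and 1, and had 20.8% and 23.5% of their spots marked as uneven or outlying, against row 2, columns 3 and 4, and 1.87% and 1.03% before it. The ZEB1-overexpression arrays before tMCAO sat in the same columns 1 and 2, with 23.7% and 18.2% of spots marked, and there Cxcl1 was -5.11 and -5.77, Cxcl5 -3.86 and -4.08, and Cxcr2 -5.77 and -6.17. The wild-type arrays before tMCAO sat in the same row 1, and there Cxcl1 was -5.60 and -3.70, Cxcl5 -4.08 and -4.60, and Cxcr2 -6.14 and -5.36. For all 3 genes, both of these groups lay below both knock-down arrays after tMCAO. These genes were picked as the ones called there, and the part of position or marked spots was not tested.

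**Figure D1:**
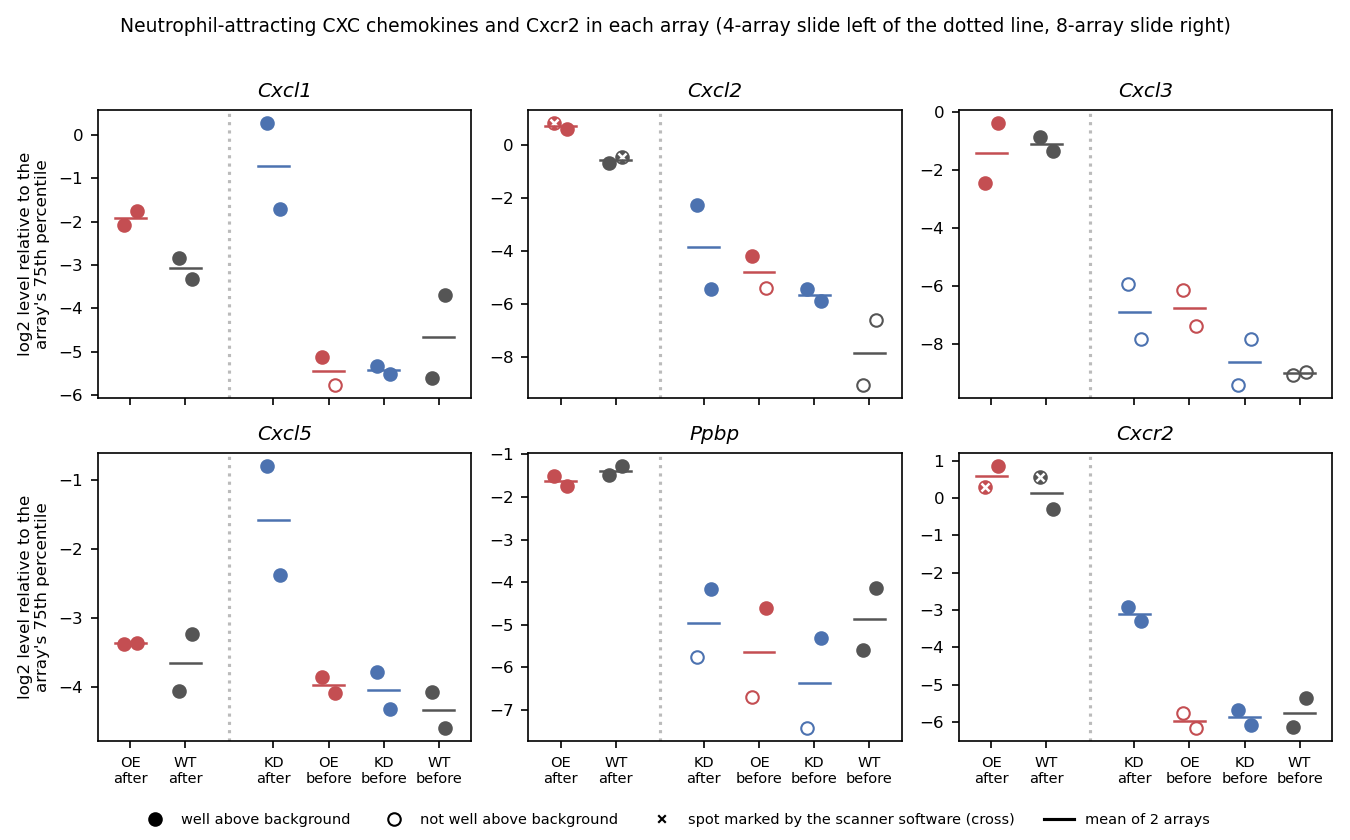
Level of each member on every array, as log2 processed intensity minus the array's 75th percentile, with the arrays of the 2 slides in separate parts of each panel. OE is ZEB1-overexpression, KD is ZEB1-knock down and WT is wild type. Points are arrays, open points were not well above background, crosses are spots marked by the scanner software, and lines are means of 2 arrays. Cxcl1, Cxcl5 and Cxcr2 stand higher in the knock-down arrays after tMCAO than in the other 3 groups of the 8-array slide, and Cxcl3 has open points on all 8 of those arrays.

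In the plot of levels by array, the order of the groups on the 8-array slide differed between members. Knock-down after tMCAO was highest for Cxcl1, Cxcl2, Cxcl5 and Cxcr2. Its arrays did not overlap with those of the next group for Cxcl1 (wild type before tMCAO), Cxcl5 (ZEB1-overexpression before tMCAO) and Cxcr2 (wild type before tMCAO), and did overlap for Cxcl2. Here and elsewhere, how many of all genes separate in this way was not counted, so non-overlap of 2 arrays is description only. For Ppbp, knock-down after tMCAO (-4.96 ± 1.13, SD, n = 2) and wild type before tMCAO (-4.86 ± 1.03, SD, n = 2) had nearly the same mean, and all neighbouring groups overlapped. For Cxcl2 the means of the 3 groups before tMCAO ran in the order ZEB1-overexpression, knock-down and wild type. Neighbours did not overlap, but the lower ZEB1-overexpression array (-5.395) and the higher knock-down array (-5.435) nearly met. That ZEB1-overexpression array and both wild-type arrays were not well above background. ZEB1-overexpression against knock-down did not pass (0.86 ± 1.19, limma adjusted p = 0.76).

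After tMCAO, arrays labelled ZEB1-overexpression showed no member past the threshold against wild type. The count was 0 of the 4 members with 2 arrays in each group, by limma at adjusted p under 0.05. Cxcl2 and Cxcr2 had 1 array left per group, and their differences are given with no test. Of all 22072 genes fitted 2.31% were called (1.58% higher and 0.734% lower) and 20.8% had an unadjusted p under 0.05. Of the 16456 with 2 arrays in each group 2.73% were called and 24.5% had such a p. Among the 4 members only Cxcl1 did, with higher values in ZEB1-overexpression. Cxcl3, Cxcl5 and Ppbp each differed by less than their SE. The median difference was 0.72 log2 units over the 6 members, Cxcl2 and Cxcr2 included, and -0.10 over all genes. The Cxcr2 value in it was 1.16, against 0.44 with all spots. Of the members 4 of 6 were above 0, and of all genes 42%.

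Cxcl1 levels were -2.07 and -1.76 in ZEB1-overexpression arrays after tMCAO, against -2.84 and -3.32 in wild-type arrays after tMCAO. The groups did not overlap, and the higher pair was the ZEB1-overexpression pair. The difference was 1.16 ± 0.28, a 2.24-fold ratio (SE, n = 2 each, 95% confidence interval 0.50 to 1.82, limma adjusted p = 0.0841). With normexp background correction it was 0.50 (adjusted p = 0.531). Cxcl2 levels were 0.83 and 0.58 in ZEB1-overexpression arrays, against -0.70 and -0.45 in wild type. These groups did not overlap either, but 1 spot of each group was marked and left out, which left 1 array per group and no spread of the gene's own. The difference was 1.28, a value with no test. With the marked spots kept, and so 2 arrays in each group, it was 1.27 and passed (limma adjusted p = 0.0444).

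Cxcr2 levels were 0.29 and 0.86 in ZEB1-overexpression arrays after tMCAO, against 0.57 and -0.29 in wild type. The groups overlapped. A marked spot in each group left 1 array per group, with a difference of 1.16 and no test, and with all spots the difference was 0.44 (limma adjusted p = 0.495). The size of the Cxcr2 difference therefore rests on which spots are kept.

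Cxcl3 levels were -2.44 and -0.38 in ZEB1-overexpression arrays after tMCAO, against -0.85 and -1.34 in wild type, where the first group spanned the second. Cxcl5 levels were -3.37 and -3.36 in ZEB1-overexpression arrays, against -4.06 and -3.24 in wild type, and the groups overlapped. Ppbp levels were -1.51 and -1.75 in ZEB1-overexpression arrays, against -1.49 and -1.27 in wild type. Ppbp was the only member whose ZEB1-overexpression arrays both lay below both wild-type arrays. The differences were -0.31 ± 0.61 for Cxcl3 (limma adjusted p = 0.810), 0.29 ± 0.32 for Cxcl5 (0.658) and -0.25 ± 0.25 for Ppbp (0.621). The 95% confidence intervals were -1.75 to 1.13, -0.48 to 1.05 and -0.84 to 0.35, so the data bound these differences only loosely.

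**Figure D2:**
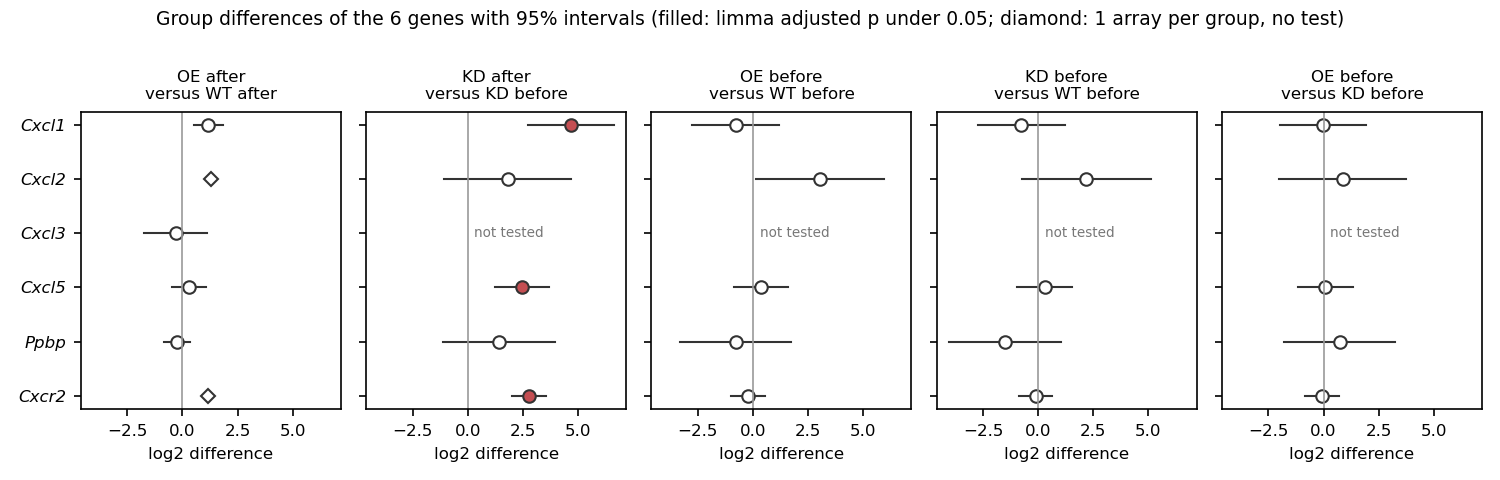
Log2 difference of each member in the 5 comparisons within a slide, as points with 95% confidence intervals from limma. Diamonds are Cxcl2 and Cxcr2 in ZEB1-overexpression against wild type after tMCAO, with 1 array per group, no interval and no test. Filled points passed adjusted p under 0.05, and these are Cxcl1, Cxcl5 and Cxcr2 in knock-down arrays after against before tMCAO.

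The plot of differences shows the comparisons before tMCAO beside those above. Before tMCAO no member was called in ZEB1-overexpression against wild type, knock-down against wild type or ZEB1-overexpression against knock-down (0 of 5 tested each). No gene was called either (0% of 25162, 30293 and 25167 genes), while 10.8%, 8.75% and 13.3% of genes had an unadjusted p under 0.05. Among the members that was 1 of 5 in the first comparison and 0 of 5 in the other two.

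That member was Cxcl2, with levels of -4.21 and -5.40 in ZEB1-overexpression arrays before tMCAO, -5.43 and -5.89 in knock-down arrays and -9.07 and -6.62 in wild-type arrays. Neither wild-type array, and only the first ZEB1-overexpression array, was well above background, whereas both knock-down arrays were. Neither genotype passed against wild type (limma adjusted p = 0.448 for ZEB1-overexpression and 0.723 for knock-down). No fold is given, since the wild-type signal was not well above background. With normexp the differences were 1.39 (adjusted p = 0.358) for ZEB1-overexpression and 0.60 (0.860) for knock-down.

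The other members were low before tMCAO in all 3 genotypes. Cxcl1 had -5.11 and -5.77 in ZEB1-overexpression arrays and -5.32 and -5.50 in knock-down arrays, against -5.60 and -3.70 in wild type, where the second array stood above the rest. Cxcr2 had -5.77 and -6.17 in ZEB1-overexpression arrays, neither well above background, and -5.67 and -6.08 in knock-down arrays, against -6.14 and -5.36 in wild type. Cxcl5 ran from -4.60 to -3.79 over these 6 arrays and Ppbp from -7.43 to -4.13. For Cxcl5 and Ppbp, neighbouring groups in the order of means overlapped.

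The differences of these members before tMCAO all had 95% confidence intervals that included 0. ZEB1-overexpression minus wild type gave -0.79 ± 0.81 for Cxcl1, 0.37 ± 0.51 for Cxcl5 and -0.79 ± 1.04 for Ppbp (limma adjusted p 0.767 to 0.832). Knock-down minus wild type gave -0.76 ± 0.82 for Cxcl1, 0.29 ± 0.51 for Cxcl5, -1.51 ± 1.05 for Ppbp and -0.13 ± 0.32 for Cxcr2 (limma adjusted p 0.804 to 0.963).

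Values of the same probes on different slides are set side by side without a test, because slide cannot be told apart from group here. In wild-type arrays after tMCAO, Cxcr2 was 0.57 and -0.29, and in wild-type arrays before tMCAO it was -6.14 and -5.36. Cxcl2 was -0.70 and -0.45 after tMCAO in wild type, and -9.07 and -6.62 before it; both arrays before tMCAO were not well above background. Ppbp was -1.49 and -1.27 after tMCAO in wild type, and -5.59 and -4.13 before it. Cxcl5 was -4.06 and -3.24 after tMCAO in wild type, and -4.08 and -4.60 before it. Cxcl3 was -0.85 and -1.34 after tMCAO in wild type, and before it -9.04 and -8.96, neither well above background. The sizes of these gaps are not compared, since slide and group change together and Cxcl2 and Cxcl3 were not well above background before tMCAO. The same probe served both designs for 5 members, and the Cxcl1 probes differed. Whether the ZEB1-overexpression difference changed with tMCAO was not tested.

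Beside the ligands, the genes of their pathway were counted in fixed lists. In knock-down arrays after against before tMCAO, 6 of 10 tested genes for other neutrophil attractants and their receptors were called higher and 0 lower (median 1.73). Of those 6, 4 had 2 arrays in each group. Where 1 array is named below, its group's spread is assumed to be that of the other groups of the slide. The 4 largest were Ccr1, a receptor of CC chemokines (4.94 ± 0.56, adjusted p = 0.00951, 1 array after tMCAO), Ccl4 (3.60 ± 0.64, 0.0197), the complement receptor C5ar1 (3.32 ± 0.38, 0.00686) and Alox5ap (2.03 ± 0.24, 0.00983, 1 array after tMCAO), which serves leukotriene synthesis. Ccr1 was well above background on only 1 of the 2 arrays before tMCAO (mean level -6.25), so the size of its difference depends on background. Among the signalling genes below CXCR2, 6 of 16 tested were called higher and 0 lower (median 0.90), and 3 of the 6 had 2 arrays in each group. They included Rgs1, which speeds the shut-off of G proteins (5.23 ± 0.59, adjusted p = 0.00926, 1 array after tMCAO), the GTPase Rac2 (2.76 ± 0.19, 0.00427, 1 array after tMCAO), Vav1, a guanine nucleotide exchange factor (2.45 ± 0.27, 0.00629), and Pik3r5, a regulatory subunit of PI3K gamma (1.99 ± 0.36, 0.0201). Against these shares, 10.1% of all genes were called higher, or 11% of those with 2 arrays in each group.

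The smaller lists gave fewer calls, of fewer genes tested, in the same comparison, where 10.1% of all genes were called higher. Of genes with 2 arrays in each group, 2 of 7 adhesion genes, 2 of 4 mRNA stability regulators and 1 of 4 related receptors were called. Of all such genes 11% were called higher. Adhesion genes used by neutrophils had 3 of 8 called higher, with the integrin subunit Itgb2 at 2.09 ± 0.26 (adjusted p = 0.00823), Icam1 at 2.08 ± 0.29 (0.0143, 1 array before tMCAO) and Icam2 at 1.23 ± 0.20 (0.0154), and 0 lower. Regulators of mRNA stability had 2 of 5 called higher, the RNase gene Zc3h12a at 1.91 ± 0.43 (0.0353) and Zfp36l2 at 1.08 ± 0.19 (0.0192). Related receptors and scavengers had 2 of 6 called higher, Cxcr4 at 2.44 ± 0.49 (0.0334) and the platelet chemokine Pf4 at 2.14 ± 0.28 (0.0191, 1 array after tMCAO). Of the upstream cytokines 0 of 6 passed, and 4 had an unadjusted p under 0.05, as did 35.4% of all genes. Tnf had the largest difference at 1.37 ± 0.47 (adjusted p = 0.0946) and Il1b the next at 1.31 ± 0.52 (0.126). Only 1 of the 2 arrays after tMCAO had Tnf well above background.

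After tMCAO in ZEB1-overexpression against wild type the same lists had 2 calls in all, where 2.31% of all genes were called and 1.58% as higher. Cxcr1, a second receptor for ELR chemokines, was higher by 1.54 ± 0.29 (adjusted p = 0.0493, 1 of the 4 in its list with 2 arrays in each group). Tnf was higher by 1.55 ± 0.24 (0.0287, 1 of 9 such genes). Cxcr1 had means of -1.58 in ZEB1-overexpression and -3.12 in wild type, and Tnf had -0.17 in ZEB1-overexpression and -1.71 in wild type. The other lists had none called. Of their genes with 2 arrays in each group, an unadjusted p under 0.05 was found for 2 of 3 adhesion genes (list median 0.89), 1 of 3 mRNA stability regulators (0.59) and 0 of 4 signalling genes (0.19), against 24.5% of all such genes. None of the 7 other attractants fitted had 2 arrays in each group. Their median was 0.81, and the largest difference was that of the formyl peptide receptor Fpr1 (1.60, 1 array per group, no test). In the 3 comparisons before tMCAO, no gene of any list was called.

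**Figure D3:**
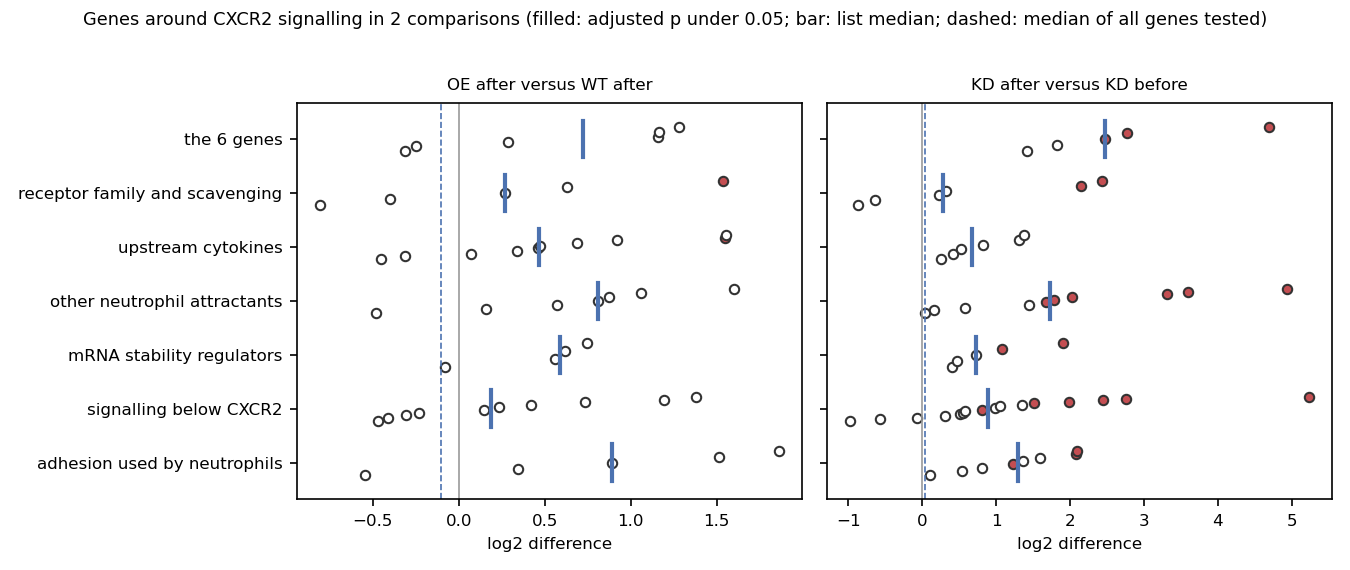
Log2 difference of every tested gene in the member and pathway lists, in ZEB1-overexpression against wild type after tMCAO and in knock-down after against before tMCAO. Points are genes, filled where adjusted p was under 0.05 and not read as a test where a gene had 1 array per group, bars are list medians, and the dashed line is the median of all genes. Calls are mostly in the knock-down comparison, where the members' median of 2.47 lies above that of the other lists.

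The plot of pathway genes shows how far the lists spread around the members. Markers of the cells that carry or release these genes also moved. Summed over the 13 neutrophil markers, in multiples of the 75th percentile, the level was 18.5 and 19.5 in knock-down arrays after tMCAO, against 8.12 and 7.47 before it, beside the higher Cxcr2. On the 2 arrays after tMCAO 10 and 11 of the 13 were well above background. The marker genes did not move one way: of 9 tested, 5 were lower and the median was -0.25. Lcn2 (2.99 ± 0.45, adjusted p = 0.0129) and Mmp8 (2.35 ± 0.54, 0.0368) rose, and Cd177 fell by 1.48 ± 0.15 (0.00523). Cd177 was well above background on only 1 of the 2 arrays after tMCAO, so the size of its fall depends on background. Ltf (-1.88, adjusted p = 0.183) and Ngp (-1.84, 0.186), both of secondary granules, did not pass. Lcn2 alone gave 7.11 and 10.1 of the sums after tMCAO, against 0.982 and 1.17 before it, and the other 12 markers gave 11.4 and 9.36 against 7.13 and 6.30. Elane, a primary granule protease, was not well above background on either knock-down array after tMCAO. In wild-type arrays before tMCAO the sums were 5.32 and 15.4, and the second array also had the higher Cxcl1 (-3.70).

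After tMCAO the neutrophil sum over 12 markers on the array was 121 and 111 in ZEB1-overexpression, against 110 and 90.6 in wild type, with all 12 above background. Elane (2.01 ± 0.37, adjusted p = 0.0463) and Cd177 (1.56 ± 0.25, 0.0305) rose, of 3 markers with 2 arrays in each group. Of all genes with 2 arrays in each group 2.73% were called, and 1.76% as higher. S100a8 averaged 3.26 in ZEB1-overexpression and 3.31 in wild type. Platelet markers, beside Ppbp, summed to 9.34 and 9.57 in ZEB1-overexpression and 9.83 and 10.1 in wild type, with 0 of 6 called. They summed to 3.72 and 5.03 in knock-down after tMCAO against 1.08 and 1.40 before it. In that last pair Pf4 alone gave 3.28 and 4.58 after tMCAO, against 0.635 and 0.869 before it, and the other 8 markers gave 0.444 and 0.448 against 0.441 and 0.535. Of the 8 tested, 4 were lower (median -0.09). Pf4 rose and Tubb1 fell by 1.76 ± 0.39 (adjusted p = 0.0425), and 7 and 6 of 9 markers were above background after tMCAO, with Gp1ba and Gp5 below it on both arrays. Tubb1 was above background on only 1 of these arrays. Microglial markers summed to 56.1 and 46.1 in knock-down after tMCAO, against 29.9 and 31.5 before it. Of 8 tested, 7 were higher and 1 lower (median 1.29), and 3 of the 4 with 2 arrays in each group were called higher. Siglech went the other way, with a mean level of 0.95 after tMCAO and 2.185 before it. Markers of monocytes and border macrophages summed to 20.5 and 20.6 after tMCAO, against 8.26 and 8.30 before it. All 6 tested were higher, with a median of 2.27 beside 2.47 for the members. Of the 4 with 2 arrays in each group, 2 were called higher, where 11% of all such genes were.

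Markers of other cells moved with both comparisons. In knock-down after tMCAO, fibroblast markers summed to 18.5 and 15.9, against 7.49 and 11.1 before it, with 2 of 3 tested called higher, Lum (3.52 ± 0.31, adjusted p = 0.00458) and Dcn (1.33 ± 0.21, 0.0282, 1 array after tMCAO). Endothelial and mural markers summed to 20.7 and 20.9 after tMCAO, against 14.3 and 14.9 before it, with 3 of 8 called higher, led by the vascular receptor Tie1 (2.08 ± 0.28, 0.00983). Astrocyte markers summed to 30.1 and 32.5 after tMCAO, against 23.1 and 23.4 before it, with Gfap called of 5 tested (2.10 ± 0.24, 0.00976, 1 array after tMCAO). The astrocyte markers did not move one way: of 5 tested, 3 were higher and 2 lower (median 0.395). Gfap had the largest rise, with a mean level of 3.125 after tMCAO and 0.983 before it. Of all genes in the knock-down comparison, 10.1% were called higher. Endothelium, fibroblasts and astrocytes can also make Cxcl1, and these sums moved with it, although single astrocyte markers went both ways. After tMCAO, beside the Cxcl1 and Cxcl2 values, endothelial and mural markers summed to 10.8 and 11.3 in ZEB1-overexpression, against 19.8 and 21.5 in wild type. All 8 tested were lower (median -1.06), 0 were called, and 4 of the 6 with 2 arrays in each group had an unadjusted p under 0.05. Of all genes in this comparison 42% were above 0, and 24.5% of genes with 2 arrays in each group had such a p. Monocyte and border macrophage markers summed to 31.7 and 31.0 in ZEB1-overexpression, against 24.2 and 19.0 in wild type, with all 6 tested higher (median 0.67) and 0 called. The part of these cells in the results was not tested.

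**Figure D4:**
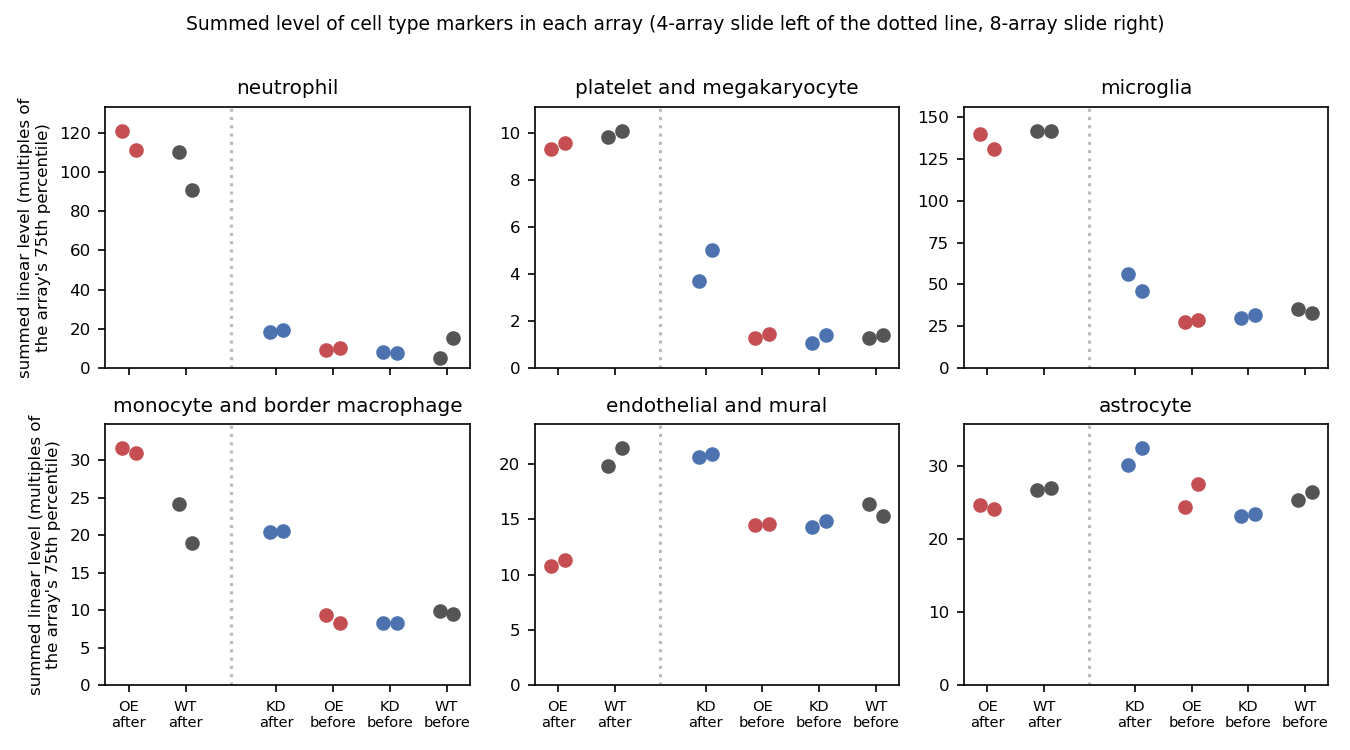
Summed level of 6 cell-type marker lists on every array, in multiples of the array's 75th percentile, from a baseline of 0. Points are arrays and the dotted line parts the 2 slides. In the knock-down arrays after tMCAO the sums of all 6 lists lie above those of the knock-down arrays before it, most of the platelet rise being Pf4. In each list but that of monocytes and border macrophages, 1 or more tested markers were lower, and the largest astrocyte rise was Gfap. After tMCAO the endothelial sums are lower in ZEB1-overexpression than in wild type.

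The plot of marker sums gives these values for each array. For Cxcl5, the only member above background on all 8 arrays of its slide, the genes with the most similar pattern were sought among 15741 genes, by the root mean square difference of levels after centring over the 8 arrays. The nearest were Kif20b (0.223), 9530053A07Rik (0.237) and Fanci (0.255), where the Cxcl5 levels themselves deviated by 1.19 from their mean.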

How the data were processed

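Gene expression was measured on single-colour Agilent arrays of Cy3-labelled RNA from 12 samples, in 6 groups of 2 taken from the labels. Per the file headers, the authors deposited scanner files from Agilent Feature Extraction 11.5.1.1 (the submitters' processing notes name 9.1) that hold linear intensity after background subtraction, and yes or no marks, a unit of the kind "other", for each spot. The authors also deposited value tables of log2 values. Each column equalled the log2 signal of an array minus a constant, and the 2 knock-down columns after tMCAO matched the file of that group's other array. The direction and scale are therefore known, and column medians ran from -3.75 to -3.04.

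From the scanner files, log2 intensity minus the array's 75th percentile was taken, marked spots were left out, and spots of a probe were averaged. Probes were named from accessions through RefSeq, 26762 of 55681 (48.1%) on the 4-array design and 33767 of 56605 (59.7%) on the other. Probes well above background on all arrays of 1 or more groups of the slide were kept, and the brightest probe stood for a gene. All 6 members passed on the 4-array slide and 5 on the other. Differences between groups of a slide were fitted in R 4.3.3 by limma 3.58.1 (two-sided, lmFit then eBayes, all groups of the slide together), adjusted by Benjamini-Hochberg over all genes, threshold 0.05. The fit was tested on simulated data. Errors beside differences are SE. On the 4-array slide a gene with 1 array left per group has no spread of its own, and its difference is given with no test. Precision is limited by how few arrays there were.

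The members and the gene lists were chosen with earlier results of these data known. All 6 members are named. From each list the called genes are named, at most the 4 with the largest difference, or at most 2 where none was called. Of the genes this rule allows, 1 is not reported here. Counts over genes with 2 arrays in each group, Ltf, Ngp, and the sums split into 1 marker and the others were chosen after their values were seen. Alternatives were keeping marked spots, normexp background correction (offset 50, on the median spot signal, since the mean signal was not used here), quantile normalization, a percentile over probes detected on all arrays, other filters, every probe tested, 2 groups in the fit, the value tables, a replicate block and each replicate left out. The replicate numbers do not pair the samples: the labels give no shared animal or batch, and there were 2 per group.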

Additional observations from a re-analysis of the deposited data

How the results depend on the processing

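Of 344 values of single members under an alternative, 312 kept their direction and side of the threshold, 22 changed sign, 8 lost a call and 2 gained one, and none of the sign changes was of a called value. Most of the 344 were of differences not called to begin with. The lost calls were 4 of 14 values for Cxcl5, 3 of 13 for Cxcl1 and 1 of 13 for Cxcr2 in the knock-down comparison. Some values could not change: on the 4-array slide a fit of 2 groups repeats the main fit, and some arrays left out had their spot already out. Counts of members called held in the 3 comparisons before tMCAO under every alternative (0). In ZEB1-overexpression against wild type after tMCAO, where Cxcl2 and Cxcr2 had no test with marked spots left out, the count was 0, except 1 (Cxcl2) with marked spots kept. In knock-down after against before tMCAO it was 3, and 1 under the stricter filter, where Cxcl5 was the only member left to test, 2 with no filter and with 2 groups fitted, and 0 to 3 with each replicate left out. A lone array was then assumed to vary like the other groups. With the replicate block it was 4, adding Ppbp (1.42, adjusted p = 0.0197), and the replicate block changed no other member's call. Same-numbered arrays deviated together only weakly (correlations 0.0481 to 0.171). Over all alternatives the knock-down differences ran from 3.69 to 5.69 for Cxcl1, 1.68 to 3.26 for Cxcl5 and 1.97 to 2.97 for Cxcr2.

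Sign changes with normexp were Cxcl5 in ZEB1-overexpression after tMCAO (-0.017), Cxcr2 in ZEB1-overexpression against wild type before it (0.06), and Cxcl1 (0.10) and Cxcr2 (0.19) in ZEB1-overexpression against knock-down. With quantile normalization they were Cxcr2 in knock-down against wild type (0.18) and Cxcl5 in ZEB1-overexpression against knock-down (-0.047). With a replicate left out, after tMCAO Cxcl3 ran from -1.34 to 0.72 and Cxcl5 from -0.13 to 0.70. In ZEB1-overexpression against wild type before tMCAO the range was -1.74 to 0.15 for Cxcl1, -0.60 to 0.17 for Cxcr2 and -1.83 to 0.26 for Ppbp. In knock-down against wild type before tMCAO the range was -1.71 to 0.18 for Cxcl1 and -0.51 to 0.26 for Cxcr2. In ZEB1-overexpression against knock-down before tMCAO the range was -0.36 to 0.30 for Cxcl1, -0.18 to 0.34 for Cxcl5, -0.29 to 0.11 for Cxcr2 and -0.33 to 1.78 for Ppbp. The cause was not tested.

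Genes called in ZEB1-overexpression after tMCAO numbered 510, against 895 with marked spots kept, 336 with normexp, 321 with quantile normalization, 929 with every probe tested, 0 with no filter and 54 to 1079 with a replicate left out. In the knock-down comparison they numbered 3940, against 7100 with normexp, 1715 with no filter, 2013 with 2 groups and 475 to 3308 with a replicate left out. Normexp moved the median of all genes to -0.27 in the first, against -0.10, and to 0.21 in the second, against 0.04, and quantile normalization moved the second to -0.10. The share of calls that were higher in the second was 63.1%, 79.1% with normexp and 45.7% with quantile normalization. The 3 knock-down calls held under both. Dim members are limited by background: Cxcl3 did not pass the filter on the 8-array slide, and without it was not called (1.74, adjusted p = 0.161, in the knock-down comparison).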
